A study of Mus musculus with 18 samples.

Results

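MicroRNA (miRNA) levels were compared between 3 KD6 and 3 KD3 input libraries, 6 of the 18 libraries in the study. They were made from mouse NIH/3T3 cells, an established embryonic fibroblast line, 6 days (KD6) or 3 days (KD3) after knockdown of Pus1, which encodes an enzyme that converts uridine to pseudouridine (Ψ) in RNA. Input means small RNA that did not go through immunoprecipitation (IP) with the Ψ antibody. The other libraries were inputs of wild-type (WT) cells and the IP libraries of all 3 conditions. The libraries were chosen by their labels, and each miRNA was counted as the sum of its rows in the deposited table. The agent used for the knockdown is not given in the sources used here. All 6 libraries carried the knockdown and no WT culture was matched to either day, so a longer knockdown and a longer time in culture cannot be told apart. The table holds miRNAs only and no level of Pus1 itself, so how far the gene was lowered on either day was not checked. Replicates were lettered A, B and C. The study states that its experiments had biological replicates, but no source says what a letter stands for in these cells, so p-values measure the spread between these libraries, which may be technical.

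miRNAs are cut from hairpin precursors by Drosha and Dicer and loaded into Argonaute proteins, where they lower the stability and translation of messenger RNAs. Bases 2 to 8 from the 5′ end, the seed, carry most of the pairing to a target, so miRNAs with 1 seed tend to share targets. Many miRNAs are transcribed as clusters, and both arms of a hairpin (5p and 3p) can give a mature miRNA. Fibroblasts are rich in miR-21a, let-7, miR-143, miR-10b and the miR-99/100 family, and miRNAs of the miR-17, miR-15/16 and miR-221 families are known for their part in control of the cell cycle.

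The mature sequences of the miRNAs on which the comparison turned are given with the seed in capitals, from RefSeq annotation of GRCm38.p6. The first group holds miRNAs that were higher in KD6 without replicate A, with seeds shared by miR-17-5p, miR-20a-5p and miR-93-5p and by miR-221-3p and miR-222-3p.
miR-17-5p: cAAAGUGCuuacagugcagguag
miR-20a-5p: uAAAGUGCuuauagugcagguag
miR-93-5p: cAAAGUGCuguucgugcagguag
miR-221-3p: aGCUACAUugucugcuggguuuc
miR-222-3p: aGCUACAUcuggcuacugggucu
miR-26b-5p: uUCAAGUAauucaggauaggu
miR-206-3p: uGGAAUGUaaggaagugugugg
The second group holds miRNAs that were lower in KD6 without replicate A, with seeds shared by miR-10a-5p and miR-10b-5p and by miR-99a-5p, miR-99b-5p and miR-100-5p.
miR-299a-3p: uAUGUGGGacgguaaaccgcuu
miR-381-3p: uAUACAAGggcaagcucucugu
miR-379-5p: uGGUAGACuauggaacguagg
miR-214-3p: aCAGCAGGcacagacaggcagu
miR-140-3p: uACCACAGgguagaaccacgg
miR-1981-5p: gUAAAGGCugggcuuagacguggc
miR-10a-5p: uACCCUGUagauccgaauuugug
miR-10b-5p: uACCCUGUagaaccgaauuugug
miR-99a-5p: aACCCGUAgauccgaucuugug
miR-99b-5p: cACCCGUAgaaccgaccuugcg
miR-100-5p: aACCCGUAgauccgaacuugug

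KD6 replicate A stood apart from the other libraries, and the main results are therefore given with and without it. Its depth was 241109 mapped reads, against 6419408 and 9256836 in KD6 replicates B and C and 8622901 to 15099781 in KD3. A count of 3, taken as the least that can be told from 0, equalled 13.4 CPM (reads scaled to 1000000 miRNA reads) there and 0.22 to 0.52 CPM in the other 5 libraries. Depth was not the only difference. Thinned to its 224505 miRNA reads, the other libraries would be expected to hold 413 to 443 miRNAs with a read, and replicate A held 367. miR-21a-5p, the most abundant miRNA, took 48.1% of its miRNA reads (95% exact binomial interval 47.9 to 48.3%, counting error only), against 32.8% and 29.5% in B and C and 35.4% to 37.6% in KD3. Pearson's r of log2 CPM across 533 miRNAs was 0.91 to 0.92 between replicate A and the other 5 libraries, and 0.98 to 1.00 among those 5. These correlations were not taken at equal depth, so they do not separate depth from other differences. Which step of library preparation or sequencing set replicate A apart was not tested.

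**Figure D1:**
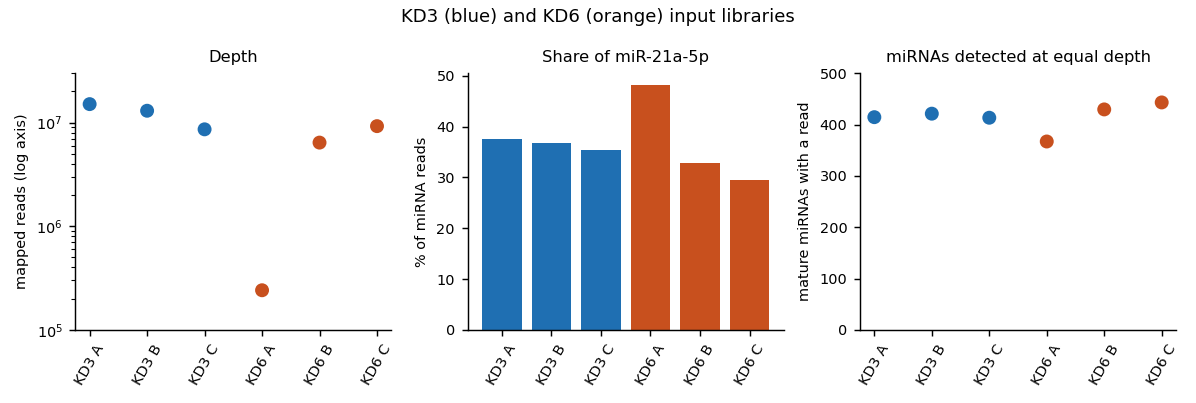
Mapped reads on a log axis, percent of miRNA reads from miR-21a-5p, and number of mature miRNAs with a read at a depth of 224505 miRNA reads, for the KD3 (blue) and KD6 (orange) input libraries, with 1 point or bar per library. KD6 replicate A has the fewest reads (241109), the largest miR-21a-5p share (48.1%) and the fewest miRNAs (367).

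The labelled cell type was checked by its markers. A list of 10 fibroblast and mesenchyme miRNAs made up 55.4% to 57.5% of miRNA reads in KD3 and 63.3%, 49.6% and 48.5% in KD6 replicates A, B and C. No miRNA of the blood list (miR-142, miR-223, miR-144, miR-451a) or the embryonic stem cell list (miR-290 and miR-302 clusters) passed the abundance filter, and only 2 of the epithelial list did. The neural list took 0.34% to 0.40% of reads in all 6 libraries, nearly all of it miR-9-5p, and none of its 4 tested members differed between the days.

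With all 6 libraries, 45 of 533 miRNAs tested (8.44%) differed between KD6 and KD3 input, 25 higher (4.69%) and 20 lower (3.75%). The main fits also held the 3 WT inputs, which entered the filter, the scaling and the estimate of spread. Fits of the compared libraries alone called 10 of 492 with replicate A and, without it, 60 of 518 higher and 57 lower. The test was edgeR's quasi-likelihood test on rounded counts with a Benjamini-Hochberg adjusted p under 0.05. Without KD6 replicate A, 69 of 558 were higher (12.4%) and 72 lower (12.9%), 25.3% in all. All 45 were among these with the same direction, and they made up 31.9% of them. The libraries of the 2 days did not overlap for 131 miRNAs (24.6%) with all 6 libraries and for 286 (51.3%) without replicate A. A group of 2 libraries separates more readily than a group of 3, so these shares are not comparable. The 131 include miRNAs with 0 or 1 count in replicate A, such as miR-210-5p and miR-466b-5p. The median size of the log2 ratio among the calls without replicate A was 0.85 for the higher and 0.82 for the lower. At a mean of at least 100 CPM, 3 higher and 10 lower calls were made with replicate A, and 27 and 43 without it.

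Directions here are relative to the bulk of miRNAs, which TMM scaling centres. With library size and no scaling factors, the median log2 ratio over all miRNAs moved from -0.05 to 0.28 without replicate A, and 79.8% of the calls were higher, with 37 lower, in place of 48.9%. With all libraries the median moved from -0.03 to 0.18 and the split from 25 and 20 to 33 and 11. Values are TMM-scaled unless stated otherwise.

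**Figure D2:**
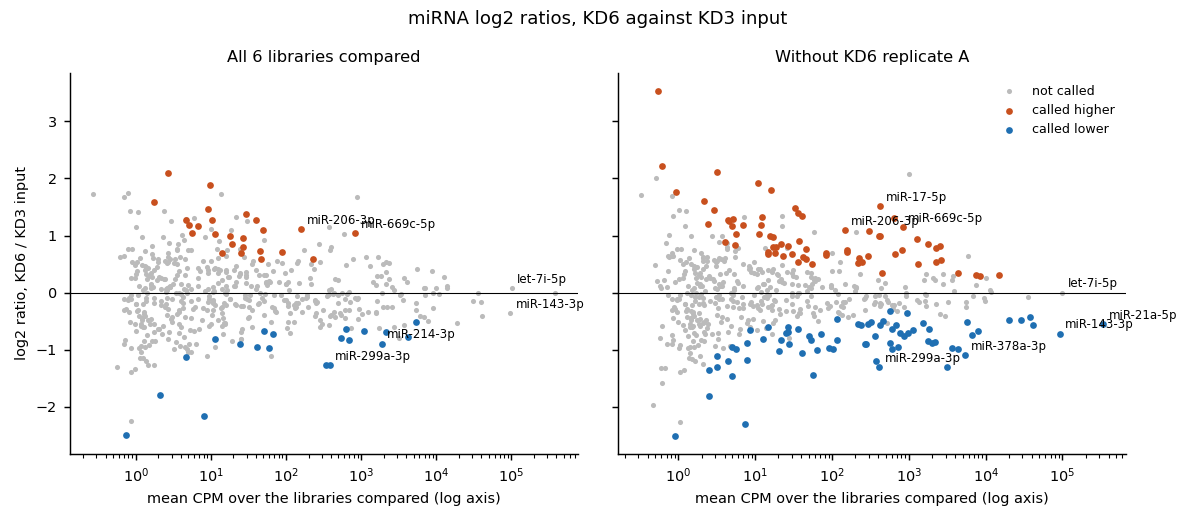
Log2 ratio of each miRNA between KD6 and KD3 input against its mean CPM (log axis), with all 6 libraries (left) and without KD6 replicate A (right), called miRNAs coloured. There are 25 higher and 20 lower calls on the left and 69 and 72 on the right, among them 27 and 43 at a mean of at least 100 CPM. Both fits also held the 3 WT inputs.

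Among miRNAs of at least 100 CPM, 3 were called higher in KD6 with all libraries. miR-206-3p, a muscle miRNA induced during myogenic differentiation, was at 91.4, 105.1 and 105.8 CPM in KD3 replicates A, B and C and at 213, 191 and 248 CPM in KD6 replicates A, B and C. The groups did not overlap, and the log2 ratio was 1.11 ± 0.16 (SE, edgeR adjusted p = 0.0026) with all libraries and 1.10 ± 0.14 without replicate A (adjusted p = 0.000265). WT inputs lay at 101.1 to 123.5 CPM, close to KD3. The other muscle miRNA tested, miR-1a-3p, had 13 counts or fewer in each library and did not pass.

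miR-669c-5p, one of a large miRNA array in an intron of Sfmbt2, was at 547, 556 and 550 CPM in KD3 and 894, 1120 and 1365 CPM in KD6. All KD6 libraries lay above all KD3 libraries, with a log2 ratio of 1.04 ± 0.18 with all libraries (edgeR adjusted p = 0.00792) and 1.15 ± 0.13 without replicate A (adjusted p = 0.000157). miR-155-5p, known from activated immune cells and processed from Mir155hg (chr16:84714143-84714165, plus strand, in an exon of that non-coding gene), was at 195.3, 183.3 and 172.2 CPM in KD3 and 300, 224 and 313 CPM in KD6. Its log2 ratio was 0.59 ± 0.16 (edgeR adjusted p = 0.0406). This call was lost in 13 of 23 alternative fits or thresholds, among them the replicate letter as a block (adjusted p = 0.0742). Without replicate A it was 0.52 ± 0.13 (adjusted p = 0.012).

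Of the miRNAs that were lower, miR-299a-3p changed most among those of at least 100 CPM. It lies in the imprinted cluster on chromosome 12 (chr12:109710676-109710697, plus strand, in no other annotated gene on that strand) and was at 536, 520 and 567 CPM in KD3 and 230.6, 223.1 and 221.5 CPM in KD6. The 3 KD6 libraries were nearly equal and well under KD3, and WT inputs lay between them at 346 to 400 CPM. The log2 ratio was -1.27 ± 0.14 with all libraries (edgeR adjusted p = 0.000729) and -1.30 ± 0.11 without replicate A (adjusted p = 5.35e-05). miR-1981-5p, from an intron of Marc2 (chr1:184822465-184822488, minus strand), was at 538, 509 and 415 CPM in KD3 and 161.4, 214.5 and 216.9 CPM in KD6, a log2 ratio of -1.26 ± 0.17 (adjusted p = 0.00206).

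Both arms of the miR-214 hairpin were lower. The hairpin lies in an exon of the non-coding gene Dnm3os, which is active in mesenchyme, and miR-214-3p maps to chr1:162223438-162223459 (plus strand). miR-214-3p was at 2577, 2419 and 2383 CPM in KD3 and 1274, 1229 and 1469 CPM in KD6, with no overlap and a log2 ratio of -0.89 ± 0.14 (edgeR adjusted p = 0.00305). miR-214-5p was at 706, 676 and 682 CPM in KD3 and 461.3, 433.7 and 318.3 CPM in KD6 (log2 ratio -0.79 ± 0.17, adjusted p = 0.0171). The ratios were nearly the same without replicate A, at -0.89 for both arms.

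miR-140-3p, a cartilage miRNA within Wwp2, was at 5502, 5138 and 5451 CPM in KD3 and 3978, 2775 and 2702 CPM in KD6. Replicate A lay between KD3 and the other KD6 libraries, and the log2 ratio was -0.77 ± 0.17 with it (edgeR adjusted p = 0.02) and -0.99 ± 0.11 without it (adjusted p = 0.000134). miR-423, from an intron of Nsrp1, was lower in both arms, miR-423-3p at 1383, 1429 and 1181 CPM in KD3 and 773, 946 and 772 CPM in KD6 (log2 ratio -0.68 ± 0.16, adjusted p = 0.0207). Neither arm passed when no scaling factors were used, in either set of libraries. With all libraries the call of miR-423-5p was lost in 13 of 23 alternatives and that of miR-423-3p in 11.

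The cluster of miR-183, miR-96 and miR-182 on chromosome 6, known from sensory cells, was lower in all 3 members without replicate A (median log2 ratio -0.73, against -0.05 over all miRNAs) and in miR-183-5p and miR-96-5p with it. Of all miRNAs 12.9% were lower without replicate A and 3.75% with it. miR-183-5p was at 773, 854 and 1020 CPM in KD3 and 571, 469 and 460 CPM in KD6. miR-96-5p was at 87.3, 82.1 and 85.7 CPM in KD3 and 46.1, 50.0 and 54.0 CPM in KD6. miR-182-5p was at 726, 792 and 1157 CPM in KD3 and 652, 516 and 591 CPM in KD6. With all 6 libraries the groups did not overlap for any of the 3, as for 24.6% of all miRNAs tested. The lower calls of miR-96-5p and miR-182-5p were not made without scaling factors.

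**Figure D3:**
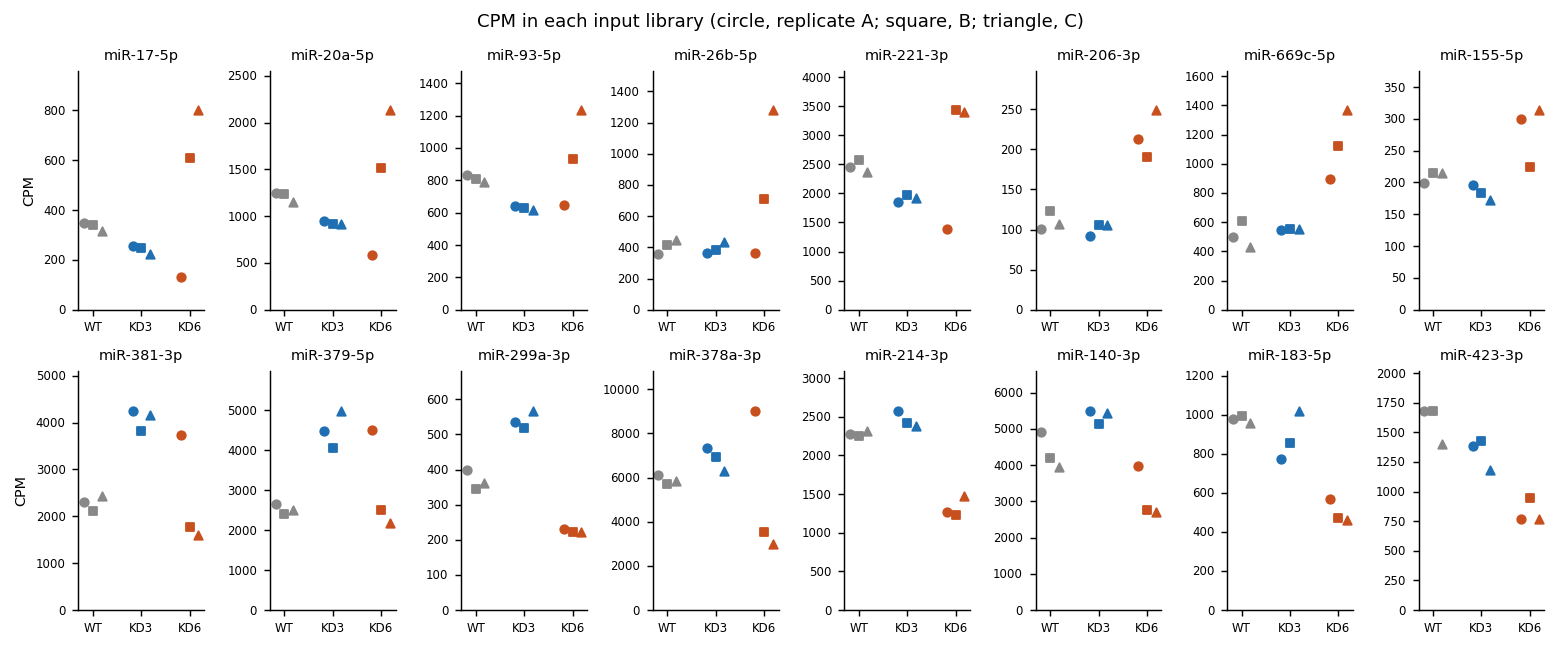
CPM of 16 miRNAs in each WT (grey), KD3 (blue) and KD6 (orange) input library, on linear axes from 0, with circles for replicate A, squares for B and triangles for C. For miR-206-3p, miR-669c-5p, miR-299a-3p and miR-214-3p the 3 KD6 points lie together on one side of KD3, while for miR-17-5p, miR-20a-5p and miR-221-3p replicate A lies under KD3 and B and C above it.

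Other miRNAs differed between KD3 and KD6 replicates B and C while replicate A lay on the KD3 side or beyond it. miR-17-5p, from the growth-promoting miR-17/92 cluster (chr14:115043684-115043706, plus strand, in an exon of Mir17hg), had the smallest p. It was at 256.1, 249.3 and 223.1 CPM in KD3 and at 132.6, 607.3 and 800 CPM in KD6 replicates A, B and C. Replicates B and C were above every KD3 and WT library and replicate A, with 23 counts, below every one. The log2 ratio was 1.51 ± 0.12 without replicate A (edgeR adjusted p = 3.91e-05) and 1.15 ± 0.40 with it (adjusted p = 0.0886), so the call rests on leaving it out.

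Some members of its seed family were also higher without replicate A. miR-20a-5p was at 952, 918 and 918 CPM in KD3 and at 588, 1514 and 2130 CPM in KD6 (log2 ratio 0.94 ± 0.12 without replicate A, edgeR adjusted p = 0.000265; 0.63 ± 0.32 with it, adjusted p = 0.231). miR-93-5p, from the miR-106b/25 cluster within Mcm7, was at 644, 629 and 615 CPM in KD3 and at 646, 931 and 1231 CPM in KD6 (log2 ratio 0.75 ± 0.11 without replicate A, adjusted p = 0.000553; 0.59 ± 0.20 with it, adjusted p = 0.0832). Of the 7 members tested in the list of miR-17, miR-20, miR-93, miR-106 and miR-18, 3 were called higher and none lower without replicate A, against 12.4% of all miRNAs higher, with a median log2 ratio of 0.61, and none passed with it. The cluster partners miR-18a-5p, miR-19a-3p and miR-19b-3p did not pass in either set. The list made up 0.180% to 0.189% of miRNA reads in KD3 and 0.116%, 0.359% and 0.543% in KD6 replicates A, B and C. Of 6 members of the miR-19 and miR-25/92 list, 3 were higher without replicate A, against 12.4% of all miRNAs (median 0.36, against -0.05). They were miR-25-3p, miR-32-5p and miR-92a-3p, and none of the 6 passed with replicate A. Without it, the call of miR-92a-3p was lost with the replicate letter as a block (edgeR adjusted p = 0.0543).

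The miR-15/16 family, which restrains cyclins, had 2 of 6 members higher without replicate A and none lower (median log2 ratio 0.54), against 12.4% of all miRNAs higher, and none of the 6 passed with it. miR-16-5p was at 290, 284 and 328 CPM in KD3 and at 213, 389 and 842 CPM in KD6, so that replicates B and C differed from each other by more than B differed from KD3. miR-221-3p and miR-222-3p, neighbours on the X chromosome that target the cell cycle inhibitor Cdkn1b, were also higher without replicate A. miR-221-3p was at 1856, 1974 and 1926 CPM in KD3 and at 1384, 3425 and 3401 CPM in KD6 (log2 ratio 0.81 ± 0.09, edgeR adjusted p = 0.000128). miR-222-3p was at 1503, 1780 and 1943 CPM in KD3 and at 1372, 2853 and 3270 CPM in KD6. With replicate A neither passed (adjusted p = 0.23 and 0.214).

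miR-26b-5p, from an intron of Ctdsp1, was at 363.2, 383.1 and 432.9 CPM in KD3 and at 363.2, 709.5 and 1277 CPM in KD6. Replicate A lay at the level of KD3, and the log2 ratio was 1.30 ± 0.19 without it (edgeR adjusted p = 0.000763) and 1.03 ± 0.33 with it (adjusted p = 0.0664). miR-30c-5p was at 1301, 1339 and 1327 CPM in KD3 and at 1257, 2364 and 2464 CPM in KD6 (log2 ratio 0.85 ± 0.09 without replicate A, edgeR adjusted p = 0.000128; 0.63 ± 0.22 with it, adjusted p = 0.0926). Replicates B and C lay together above KD3 for this miRNA, unlike for miR-26b-5p.

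In some families replicate C alone was high. miR-29b-3p, a regulator of collagen genes, was at 272, 401 and 613 CPM in KD3 and at 225, 304 and 3463 CPM in KD6. Its log2 ratio of 2.08 ± 0.81 without replicate A did not pass (edgeR adjusted p = 0.0821), and none of the 3 tested miR-29 guide strands passed. miR-301a-3p was at 4.58, 8.13 and 11.8 CPM in KD3 and at 0, 9.50 and 47.3 CPM in KD6. It was called higher without replicate A (log2 ratio 1.80 ± 0.58, adjusted p = 0.0435; with it 1.73 ± 0.61, adjusted p = 0.0965) although replicate B lay within the range of KD3.

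The let-7 family, the largest after miR-21a in this line, had 1 called member on the TMM scale without replicate A and 6 without scaling factors. Of 9 members, miR-98-5p was higher without replicate A (log2 ratio 0.68 ± 0.11, edgeR adjusted p = 0.00117), none was lower, and with replicate A none passed. The median log2 ratio of the 9 was 0.14 without replicate A, and 0.46 without scaling factors, where all miRNAs had a median of 0.28. The family made up 15.8% to 17.3% of miRNA reads in KD3 and 14.04%, 22.08% and 20.08% in KD6 replicates A, B and C. let-7i-5p, its most abundant member, took 8.86% to 9.74% of reads in KD3 and 8.81%, 12.3% and 10.9% in KD6. On the TMM scale it had a log2 ratio of 0.00 ± 0.12 without replicate A, while without scaling factors it was 0.32 and passed (adjusted p = 0.0161).

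Of the 10 fibroblast and mesenchyme miRNAs, 5 were lower and 3 higher without replicate A on the TMM scale (median log2 ratio -0.32). Of all miRNAs tested, 12.9% were lower and 12.4% higher. Without scaling factors 3 of the 10 were lower and 3 higher. The median of the 10 then turned to 0.02, where all miRNAs had a median of 0.28. With all libraries 1 of the 10 was lower and none higher, against 3.75% and 4.69% of all miRNAs. miR-199a-3p, miR-199b-3p and miR-31-5p were those higher without replicate A. miR-199a-3p and miR-199b-3p have the same sequence and share reads, so these 2 higher calls are 1 measurement. miR-21a-5p, encoded in Vmp1, had a log2 ratio of -0.55 ± 0.11 (edgeR adjusted p = 0.00394), against 0.00 ± 0.29 with replicate A, where its share was highest. miR-143-3p, known from smooth muscle, took 9.83%, 9.49% and 11.7% of miRNA reads in KD3 and 9.28%, 7.74% and 8.08% in KD6. In WT inputs its share was 6.33% to 6.58%, below both. Its log2 ratio was -0.72 ± 0.12 without replicate A (adjusted p = 0.00122) and -0.36 ± 0.22 with it (adjusted p = 0.312). miR-378a-3p, a miRNA linked to energy metabolism, was at 7364, 6945 and 6294 CPM in KD3 and at 9029, 3526 and 2998 CPM in KD6. Replicate A was above KD3 and B and C under it (log2 ratio -1.09 ± 0.11 without A, adjusted p = 0.000128; -0.41 ± 0.33 with it, adjusted p = 0.458).

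Of the list of miR-10 and miR-196 from the Hox clusters, 2 of 4 members were lower without replicate A and none higher. Of the list of miR-99, miR-100 and miR-125, 3 of 5 were lower and none higher. Over all miRNAs 12.9% were lower and 12.4% higher. With replicate A 1 of each list was lower, against 3.75% of all miRNAs. miR-125a-5p and miR-125b-5p were not called in either set, with log2 ratios of 0.32 and 0.25 without replicate A. miR-10a-5p was at 2410, 2509 and 3047 CPM in KD3 and 1989, 1506 and 1447 CPM in KD6, lower in every library (log2 ratio -0.70 ± 0.16, edgeR adjusted p = 0.0229). miR-10b-5p, in introns of Hoxd3 and Hoxd4, was lower without replicate A (log2 ratio -0.56 ± 0.13, adjusted p = 0.0107) and did not pass with it (-0.41 ± 0.17, adjusted p = 0.151). miR-99a-5p, miR-99b-5p and miR-100-5p, which share a seed, were all lower without replicate A, with log2 ratios of -0.51, -0.42 and -0.48. With it miR-99b-5p and miR-100-5p did not pass (edgeR adjusted p = 0.581 and 0.678), and the call of miR-99a-5p (adjusted p = 0.033) was lost with the replicate letter as a block (adjusted p = 0.0537). The 3 together took 7.34% to 8.09% of reads in KD3 and 7.26%, 7.01% and 7.02% in KD6, and without scaling factors neither these 3 nor miR-10b-5p passed.

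The imprinted cluster on chromosome 12, whose miRNAs are expressed from the maternal chromosome, had 58 members tested without replicate A. Of these 14 were lower and 4 higher, against 12.9% and 12.4% of all miRNAs, and the median log2 ratio was -0.24, while without scaling factors the count turned to 8 lower and 9 higher and the median to 0.09. With all libraries 2 of 57 were lower and 2 higher. With the replicate letter as a block the counts were 12 lower and 3 higher without replicate A, where miR-300-3p, miR-370-3p, miR-411-5p and miR-410-3p were lost, and 1 lower and none higher with all libraries. miR-381-3p was at 4253, 3827 and 4169 CPM in KD3 and at 3736, 1775 and 1598 CPM in KD6, all 3 under KD3 (log2 ratio -1.29 ± 0.11 without replicate A, edgeR adjusted p = 5.35e-05; -0.80 ± 0.27 with it, adjusted p = 0.0841). WT inputs were at 2108 to 2430 CPM, between KD6 replicates B and C and KD3. The cluster took 1.46% to 1.53% of miRNA reads in KD3, 1.12%, 1.11% and 1.09% in KD6 and 1.00% to 1.04% in WT.

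Within that cluster the 2 arms of a hairpin could part. miR-379-5p was at 4487, 4057 and 4989 CPM in KD3 and at 4497, 2504 and 2187 CPM in KD6, lower without replicate A (log2 ratio -0.96 ± 0.13, edgeR adjusted p = 0.000359) and not called with it (-0.57 ± 0.24, adjusted p = 0.145). WT inputs were at 2406 to 2665 CPM, near KD6 replicates B and C. miR-379-3p was at 17.5, 17.8 and 20.3 CPM in KD3 and at 34.6, 30.5 and 28.5 CPM in KD6, higher with and without replicate A (log2 ratio 0.69 ± 0.18 and 0.65 ± 0.17), though with all libraries the call was lost with the replicate letter as a block (edgeR adjusted p = 0.0704). Of 176 hairpins with both arms tested without replicate A, 18 had both arms called. In 12 the arms moved together, among them miR-214, miR-423, miR-20a, miR-25 and miR-30b, and in 6 they moved apart, in miR-143, miR-152, miR-199a-1, miR-365-1, miR-369 and miR-379. The arms had the same sign in 104 of the 176 (59.1%). miR-199a-3p and miR-199b-3p have the same sequence and share reads, so their equal log2 ratios of 0.31 are 1 measurement.

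The Sfmbt2 array had calls in 1 direction in both sets of libraries. Of 24 members tested with all libraries 6 were higher and none lower (median log2 ratio 0.49), and of 26 without replicate A 9 were higher and none lower (median 0.52), against 4.69% and 12.4% of all miRNAs called higher. With the replicate letter as a block 5 and 8 were higher, with miR-669b-5p lost in the first set and miR-466d-3p and miR-669e-5p in the second (edgeR adjusted p = 0.0607, 0.0624 and 0.0784), and with the 6 libraries alone 3 of 22. Of all miRNAs, 14 of 533 and 59 of 558 were higher with the block, and 5 of 492 with the 6 libraries alone. The array made up 0.0745% to 0.0799% of miRNA reads in KD3, 0.0851%, 0.169% and 0.216% in KD6 and 0.0739% to 0.0917% in WT. Next to miR-669c-5p, miR-669o-5p was at 24.3, 29.8 and 21.3 CPM in KD3 and at 34.6, 67.1 and 63.0 CPM in KD6, and miR-669l-5p at 21.6, 21.1 and 14.1 CPM in KD3 and at 11.53, 53.18 and 54.82 CPM in KD6. The other called members lay under 25 CPM, where replicate A had 0 to 2 counts. Members of the array are near-identical copies and reads that match several are divided among them, so they are not independent measurements.

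Calls in the other lists were few. Of all miRNAs 12.4% were higher and 12.9% lower without replicate A. Without replicate A, miR-24-3p and miR-24-2-5p were lower among 11 members of the miR-23/24/27 list, miR-34c-5p, a p53-responsive miRNA, among 3 of the miR-34 family and miR-210-5p among 2 of miR-210, the hypoxia miRNA. miR-181d-5p was higher among 4 members of its family and miR-152-3p among 5 of the list of miR-103, miR-148 and their relatives. The X-linked cluster of miR-322, miR-503, miR-351, miR-450 and miR-542 had 2 of 12 members higher (miR-503-3p and miR-450b-3p) and miR-542-5p lower, shares near the 12.4% and 12.9% of all miRNAs. With all libraries only miR-503-3p of these passed (log2 ratio 0.81 ± 0.18, edgeR adjusted p = 0.02), where 4.69% of all miRNAs were higher. The lower calls of miR-210-5p and miR-542-5p were not made without scaling factors, and with the replicate letter as a block those of miR-210-5p (edgeR adjusted p = 0.117) and miR-450b-3p (adjusted p = 0.0811) were lost.

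**Figure D4:**
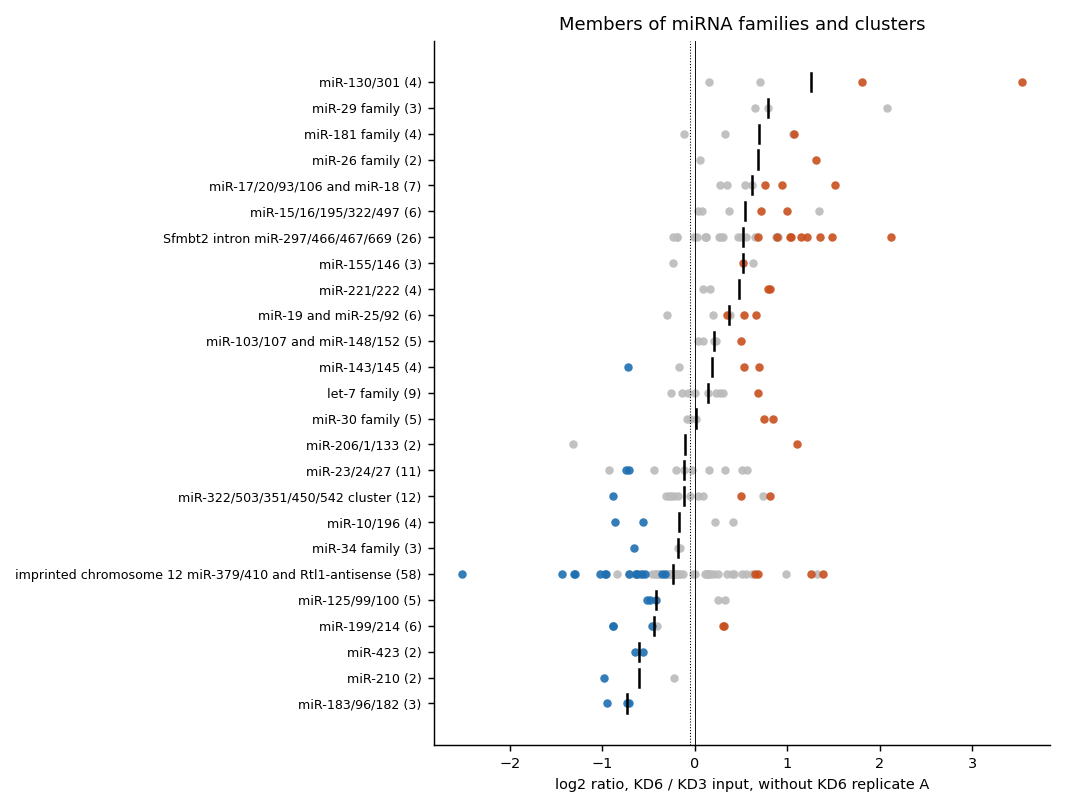
Log2 ratio between KD6 and KD3 input, without KD6 replicate A, of every tested member of 25 miRNA families and clusters (number tested in parentheses), with called members coloured (orange higher, blue lower), a black bar at each list's median and a dotted line at the median of all 558 miRNAs (-0.05). The Sfmbt2 array has 9 members called higher and none lower, and the cluster of miR-183, miR-96 and miR-182 has all 3 called lower, 2 of which were not called without scaling factors. Of all 558 miRNAs, 12.4% were called higher and 12.9% lower. Ratios are TMM-scaled, and without scaling factors the median of the chromosome 12 cluster turns from -0.24 to 0.09.

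Replicate A, which took no part in the calls made without it, was set beside them. Of the 27 miRNAs of at least 100 CPM called higher without it, replicate A was above all KD3 libraries for 7 (25.9%) and below all of them for 16, and over all tested miRNAs at that level it was above for 30.5%. Of the 43 called lower it was below all KD3 libraries for 24 (55.8%), against 57.1% of all. Across 303 miRNAs, Pearson's r between the log2 ratio of a library to the KD3 mean and the KD3 level was -0.41 for replicate A, 0.02 for B and -0.09 for C. The KD3 level enters both terms, and 57.7% of the 558 miRNAs tested had 3 counts or fewer in replicate A. This r therefore cannot separate low counts from other traits of replicate A. The calls made without replicate A describe 2 KD6 libraries.

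**Figure D5:**
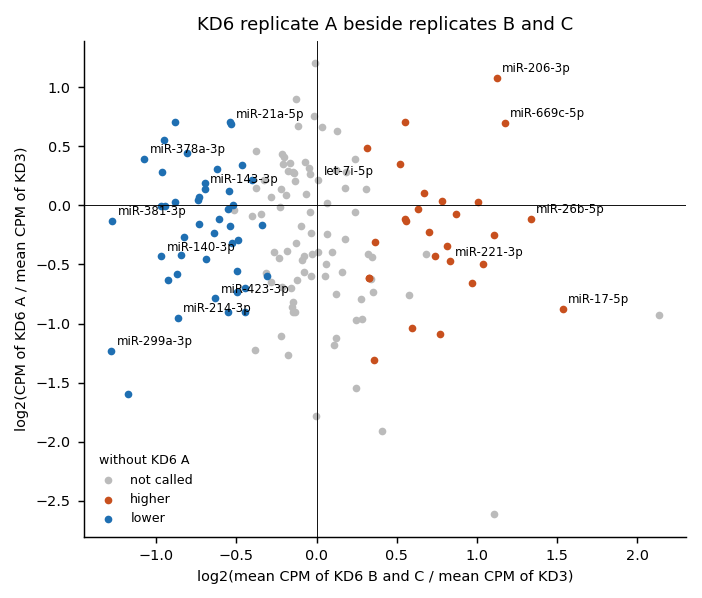
Log2 of KD6 replicate A over the KD3 mean (y) against log2 of the mean of KD6 replicates B and C over the KD3 mean (x), for 156 miRNAs that averaged 100 CPM or more across the 6 libraries, coloured by the call made without replicate A. miR-206-3p and miR-669c-5p are high and miR-299a-3p is low on both axes, while miR-17-5p is high on x and low on y.

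The IP libraries of the same conditions, which share no library with the inputs, give the same miRNAs a second measurement, though one that also depends on capture by the Ψ antibody. In a separate fit of KD6 against KD3 IP, 55 of the 69 miRNAs that were higher in input without replicate A were tested. The IP log2 ratio was positive for 35 of the 55 (63.6%), with 12 called higher and 1 lower. Of the 72 that were lower, 68 were tested and the ratio was positive for 20 (29.4%), with 20 called lower and 1 higher. Over all 393 tested in both it was positive for 48.6%, with 32 called higher (8.14%) and 40 lower (10.2%). miR-669c-5p (IP log2 ratio 1.34 ± 0.20) and miR-206-3p (0.69 ± 0.21) were also higher in IP, and miR-299a-3p (-1.22 ± 0.35), miR-140-3p (-1.49 ± 0.26) and miR-379-5p (-1.28 ± 0.21) also lower. miR-155-5p, miR-423-3p and miR-99a-5p likewise passed in the direction of input. miR-1981-5p (-0.37 ± 0.30), miR-183-5p (-0.20 ± 0.20), miR-96-5p, miR-10a-5p, miR-423-5p and both miR-214 arms had negative ratios in IP but did not pass. miR-143-5p, higher in input, was at -0.57 ± 0.45 in IP and did not pass. miR-17-5p (-0.55 ± 0.37) and miR-20a-5p (0.13 ± 0.23) did not pass in IP, and miR-21a-5p (0.72 ± 0.22), lower in input replicates B and C, was higher.

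The called miRNAs differed in base composition. Among miRNAs with a RefSeq sequence, the median GC content was 40.9% for 53 called higher without replicate A, 52.4% for 63 called lower and 50% for all 478 tested. Across the 478, Pearson's r between the log2 ratio and GC content was -0.36 (Spearman's rho -0.36), and over 135 of at least 100 CPM it was -0.36 (rho -0.37). Taken by library against the KD3 mean, over 303 miRNAs, r was -0.25 for KD6 replicate B, -0.36 for C and -0.01 for A, and each KD3 library against the other KD3 libraries gave -0.11 to 0.14. These are descriptions across miRNAs, which share libraries, depth and precursors, and the part of base composition in the calls was not tested.

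Mapped reads that fell outside every miRNA row were 9.66% ± 0.28 of the total (SD, n = 3) in KD3 and 8.82% ± 1.68 in KD6 (exact two-sided permutation test, p = 0.7, where 0.1 is the smallest p that 3 against 3 libraries allow). The 3 KD6 libraries held 6.88%, 9.61% and 9.96% in replicates A, B and C, so that the groups overlapped.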

How the data were processed

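Small RNA was sequenced from NIH/3T3 cells. Reads were cleared of the 3′ adapter by the authors and passed to SeqImp (version not given in the sources used here) in its default mouse miRNA configuration with mm10, Ensembl 89 and miRBase 21. They deposited estimated counts per mature miRNA and locus, not normalized, with reads of several loci divided among rows, and tested them with DESeq2. Here the rows of a miRNA were summed and rounded (2045 rows, 1907 miRNAs, of which 78 had several rows), since 47.0% of non-zero values were not whole. The row of mapped totals named no miRNA and stayed out of tests.

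Counts of the 9 input libraries were filtered with filterByExpr by group, scaled by TMM and fitted by group mean with no block (glmQLFit and glmQLFTest of edgeR 4.0.16, R 4.3.3) for the contrast KD6 minus KD3, and again with 8 libraries, without KD6 replicate A. Adjusted p is Benjamini-Hochberg over all miRNAs tested, with 0.05 as the threshold, and CPM uses the effective library sizes of the first fit. Named miRNAs are up to 8 of smallest p in each direction and fit with a mean of at least 100 CPM, the 5 most abundant, and called members of 25 lists. The comparison, the lists and the naming rule were chosen with earlier results of these data known. miR-29b-3p, miR-1a-3p, miR-9-5p and the hairpins named for their arms were added after their values were seen.

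Alternatives were other scalings, filters and row treatments, other sets of libraries, the replicate letter as a block, DESeq2 1.42.0, limma 3.58.1 (voom with sample weights), stricter thresholds and each library left out. The main fits had no block, and the values do not settle whether the letters pair the libraries. Across 210 miRNAs, deviations from the group means correlated at 0.22, 0.26 and 0.33 for same-letter libraries. For libraries of different letters r was -0.36 to 0.15. Deviations within a group cancel out, so these values are not independent. No label says what a letter shares. All replicate pairs differed beyond sampling noise. The fits were tested on simulated counts. Of 1683 rows with a RefSeq entry, 1677 lay within 2 bases of its 5′ end, and 61 of 78 named miRNAs had a sequence. Host genes are from GENCODE M21.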

Additional observations from a re-analysis of the deposited data

How the results depend on the processing

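With all libraries the count of called miRNAs moved from 45 to 84 with no abundance filter and 90 with limma-voom sample weights, and fell to 24 with all 18 libraries in the fit, 10 with the 6 libraries alone, 12 with those under DESeq2 (chosen after seeing the data), 4 with those and the replicate block, 14 at an adjusted p under 0.01 and 6 for changes beyond 1.5-fold. Leaving out 1 library gave 14 to 48, with 16 without KD3 A, 22 without KD3 B, 14 without KD3 C and 27 without KD6 C, besides the 69 higher and 72 lower without KD6 A. Without KD6 A, it was 36 with all 18 libraries, 84 at an adjusted p under 0.01, 25 beyond 1.5-fold and 104 to 167 when 1 more library was left out, where without KD6 B (167) or KD6 C (49 higher and 58 lower) KD6 is 1 library assumed to vary like the other groups. It was 0 with edgeR, the 5 libraries and the replicate block, where 25.9% of 518 had an unadjusted p under 0.05 and 1 residual degree of freedom was left, while DESeq2 on the 5 libraries with no block (chosen after seeing the data) called 70 higher and 64 lower. The causes were not tested. The replicate block over all inputs gave 31 calls with KD6 A and 129 without, and ended the calls of miR-155-5p, miR-99a-5p, miR-370-3p, miR-377-3p, miR-379-3p and miR-669b-5p with KD6 A and of 9 weaker named miRNAs without it. Scaling by library size or total mapped reads turned 2 of the named log2 ratios without KD6 A, let-7i-5p to 0.316 and 0.314 and miR-300-3p to 0.004 and 0.002. miR-299a-3p and miR-1981-5p passed under all 23 alternatives with KD6 A. Calls of miR-99a-5p, miR-379-3p, miR-155-5p, miR-96-5p and miR-423-3p were lost in 15, 14, 13, 12 and 11 of the 23. Those of miR-423-5p, miR-377-3p, miR-669b-5p and miR-503-3p were lost in 13, 12, 11 and 10, and that of miR-370-3p in 10 of 17. The share of mapped reads outside miRNA rows, KD6 minus KD3, was -0.843 percentage points, from -1.41 without KD6 C to 0.124 without KD6 A, where it reversed (exact p = 0.8). KD6 A limits what can be seen: 57.7% of the 558 miRNAs had 3 counts or fewer in it.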
